A study of Mus musculus with 19 samples.

Results

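Cell cycle and DNA replication genes were followed in cornea and conjunctiva from mice on ad libitum feeding (AL) or calorie-restricted feeding (CR). The set was a list of 42 gene symbols fixed by name, and its members were the rows of the cornea and conjunctiva tables carrying those symbols. All 42 were found in both tables, each of 24552 genes, and all 42 were tested in both tissues, among 12278 genes tested for cornea and 13929 for conjunctiva. The tissues came from C57BL/6 mice (female C57BL/6J by the study's methods), and the library titles of all groups carry 6M and 50W, which the labels do not explain. The cornea was sequenced in 5 AL and 5 CR libraries, and the conjunctiva in 4 AL and 5 CR. The AL mice ate freely and the CR mice received a restricted daily ration just before the dark phase. By the study's methods the restriction was reached in steps and lasted 4 months, so the mice were older at collection than at its start. In 1 of the study's cohorts the CR chow was also enriched in vitamins and micronutrients, and the labels do not give the cohort, so restriction, feeding hour and any difference in chow cannot be told apart. Corneal epithelium was scraped off and the conjunctiva was excised whole, so both are mixtures of cells, and fewer dividing cells cannot be told apart from less RNA per cell. Libraries are named by diet and the number in their title. By the study's methods several tissues were taken from each mouse. The labels do not say which cornea and conjunctiva libraries came from the same mouse.

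The ocular surface is covered by a stratified epithelium that is renewed throughout life. Basal cells divide, and their daughters move toward the surface and are shed. A dividing cell first loads the MCM helicase onto replication origins, then copies its DNA with nucleotides made by dedicated enzymes, and enters mitosis when CDK1 bound to a B-type cyclin is freed from inhibitory phosphorylation by WEE1. Genes of DNA replication are classically switched on by E2F factors, while most mitotic genes are controlled by the DREAM and MuvB complexes through a short element known as the cell cycle genes homology region (CHR), often near CCAAT boxes.

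Promoters of members were examined for these elements. Windows of 300 bases, from 250 bases before to 50 after the RefSeq start (build GRCm38.p6), were listed for 33 of the 42 members. Those not listed were *Foxm1*, *Mcm4*, *Ccna2*, *Wee1*, *Kif20a*, *Aurkb*, *Gins2*, *Ccne2* and *Tpx2*. Motifs were counted on both strands. The CCAAT box was searched by its own letters, CCAAT. The CHR was counted wherever TTTGAA was present, and also where its other accepted spelling TTCGAA was present. For E2F the first spelling searched was TTCGCGC. The second spelling searched for these factors was TTGGCGC, which can overlap the first on the other strand, each then being counted. The third spelling searched for these factors was TTCCCGC. The last spelling searched for these factors was TTGCCGC. The E-box, the site of clock and MYC factors, was searched as CACGTG. The promoters below belong to *Cdk1* and *Top2a*, which fell in the cornea, to *Prc1*, a spindle gene whose cornea groups did not overlap, and to *Mcm6*, the licensing gene with the smallest p in the conjunctiva. Each is written 5′ to 3′ on the strand of its gene, with every CCAAT, CHR and E2F match in capitals.
Cdk1 (chr10:69352863-69353162, minus strand): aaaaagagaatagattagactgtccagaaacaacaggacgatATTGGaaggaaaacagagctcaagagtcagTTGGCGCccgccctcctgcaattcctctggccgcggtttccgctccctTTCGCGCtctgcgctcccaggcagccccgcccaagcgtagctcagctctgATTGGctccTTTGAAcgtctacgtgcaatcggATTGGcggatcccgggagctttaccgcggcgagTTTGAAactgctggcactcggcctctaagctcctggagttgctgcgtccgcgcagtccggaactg
Top2a (chr11:99024140-99024439, minus strand): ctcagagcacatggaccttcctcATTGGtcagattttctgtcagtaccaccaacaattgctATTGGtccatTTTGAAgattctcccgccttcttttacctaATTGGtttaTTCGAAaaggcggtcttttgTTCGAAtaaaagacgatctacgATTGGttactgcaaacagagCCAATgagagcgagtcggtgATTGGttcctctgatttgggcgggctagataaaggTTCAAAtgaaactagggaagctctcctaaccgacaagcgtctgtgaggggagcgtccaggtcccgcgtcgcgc
Prc1 (chr7:80294201-80294500, plus strand, the first of its listed windows): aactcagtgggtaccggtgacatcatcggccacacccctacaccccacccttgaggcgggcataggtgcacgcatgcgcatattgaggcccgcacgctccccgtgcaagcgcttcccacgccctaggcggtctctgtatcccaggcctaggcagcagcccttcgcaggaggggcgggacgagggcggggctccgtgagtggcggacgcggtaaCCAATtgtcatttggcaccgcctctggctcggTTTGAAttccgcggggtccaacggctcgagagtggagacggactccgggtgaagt
Mcm6 (chr1:128359656-128359955, minus strand): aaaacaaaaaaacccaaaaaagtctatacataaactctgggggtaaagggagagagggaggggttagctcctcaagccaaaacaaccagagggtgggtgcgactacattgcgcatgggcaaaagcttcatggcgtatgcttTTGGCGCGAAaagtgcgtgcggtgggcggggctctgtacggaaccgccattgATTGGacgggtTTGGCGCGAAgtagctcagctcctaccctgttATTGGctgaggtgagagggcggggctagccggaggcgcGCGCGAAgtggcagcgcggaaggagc

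The *Cdk1* window held 3 CCAAT boxes, 2 CHR matches and 2 E2F matches, and the *Top2a* window 6 CCAAT boxes and 4 CHR matches. *Prc1* held 1 CCAAT box and 1 CHR match, and *Mcm6* held 2 CCAAT boxes and 5 E2F matches. Of the 13 listed mitosis promoters (mitotic kinases, checkpoint and spindle genes), 10 held a CHR match and 0 an E2F match. Of the 12 listed replication promoters (licensing, helicase and nucleotide genes), 2 held a CHR match and 8 an E2F match. Among all 27025 listed genes, 21.7% held a CHR match, 10.9% an E2F match and 41.1% a CCAAT box, against 48.5%, 33.3% and 72.7% of the 33 members. Among the 11076 of them tested in either tissue, these shares were 16.8%, 18.5% and 42.6%. An E-box was present in 1 member promoter, that of *Tyms*, in 8.09% of all listed genes and in 11.4% of those tested. *Wee1* had no listed window, so its promoter was not searched. These matches are letters in a window, not mapped binding sites.

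Depth was 10354125 to 14681223 counted reads for the cornea libraries, and 10726717 to 14433441 for those of conjunctiva. The corneal libraries carried the corneal keratin *Krt12* as the most abundant corneal marker, and the conjunctival libraries carried the goblet cell mucin *Muc5ac* (2328 to 6593 normalized counts). The members were well covered. Their summed reads were 16534 to 25526 per AL cornea library and 16266 to 20983 per CR cornea library. Conjunctiva libraries held 9559 to 17792 under AL and 8488 to 17801 under CR. Only *Mybl2* ever dropped below 10 reads in a library. Cornea AL 1 stood apart by lacrimal gland secretory genes, which summed to 48327 normalized counts there, against 49.2 to 175 in CR corneas. The lowest AL sum was 159. The corneal members described most closely are also given without AL 1. For 3 of the 8 tested lacrimal genes every CR library lay below every AL library, a difference that leaving out AL 1 does not remove.

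The first comparison asked which of these genes CR modulated in the cornea. *Wee1* rose, *Cdk1* and *Top2a* fell, and 14 of 16 mitosis genes had negative log2 changes, with 0 of them past the adjusted test. Of the 42 members, 3 passed an adjusted p under 0.05 (limma, adjusted over all genes tested), where 1.53% of all tested genes did, and 1 was higher and 2 lower (0.953% and 0.578% of all genes). With a fold change over 1.5 as well, 2 members were called changed, *Wee1* and *Cdk1*, against 1.22% of all genes (0.749% higher and 0.472% lower). Negative log2 changes were found for 30 of 42 members and positive ones for 12 (53.1% and 46.9% of all genes), and the median was −0.23 (−0.03 over all genes). At an unadjusted limma p under 0.05, 7 members were lower, where 9.55% of all genes were, and 2 were higher, where 8.52% were (18.1% in either direction). Without CR 7 the lower count was 11. The CR libraries lay entirely below the AL libraries for 3 members (1.89% of all genes) and entirely above for 1 (2.08%, or 3.97% in either direction).

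*Wee1* encodes the kinase that holds CDK1 inactive until a cell is ready for mitosis. In AL corneas it measured 262, 264, 235, 339.6 and 241 normalized counts (AL 1 to AL 5), and in CR corneas 514, 465, 696, 462 and 620.4 (CR 1 to CR 4 and CR 7). Every CR library lay above every AL library, and AL 4 was the highest of the AL libraries by a wide gap. The mean went from 268 ± 41.9 to 551 ± 103 (SD, n = 5 per diet). On the log2 scale it rose by 1.03 ± 0.15 (SE), with a limma adjusted p of 0.0015 and a 95% interval of 0.71 to 1.35. Without AL 1 the log2 change was 1.02 (limma adjusted p = 0.0053). *Wee1* is known as an output of the circadian clock in mouse tissues. The clock genes *Per2* and *Dbp*, picked with their values known, moved in the same libraries. *Per2* rose from 154 ± 46.3 to 1208 ± 207 normalized counts, by 2.998 ± 0.19 on the log2 scale (limma adjusted p = 6.4e-08), and *Dbp* from 380.3 ± 133 to 2565 ± 420 (2.82 ± 0.24, limma adjusted p = 9.6e-05). Their part in the *Wee1* result was not tested.

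*Cdk1* encodes the kinase that drives entry into mitosis. It measured 758, 812, 644, 729 and 841 normalized counts in AL 1 to AL 5, and 579, 378, 381, 515 and 561 in CR 1 to CR 4 and CR 7. The groups did not overlap, and CR 2 and CR 3 were the lowest. The mean fell from 757 ± 77.0 to 483 ± 97.2 (n = 5 per diet). On the log2 scale this was −0.67 ± 0.15 (SE), with a limma adjusted p of 0.0280 and a 95% interval from −0.97 to −0.36. Without AL 1 the log2 change was −0.66 (limma adjusted p = 0.0702). The call was also lost without AL 2, AL 5, CR 2 or CR 3, with limma adjusted p-values of 0.0867, 0.0945, 0.0849 and 0.0969 and log2 changes of −0.64, −0.63, −0.58 and −0.59. In a model that held the share of genes at 0 it was −0.57 (limma adjusted p = 0.136). That share was 40.5% ± 2.70 in AL and 44.4% ± 3.06 in CR corneas (n = 5 per diet, exact two-sided permutation p = 0.0714). Apart from *Cdk1*, the cyclins were split. The mitotic cyclins *Ccna2*, *Ccnb1* and *Ccnb2* had log2 changes of −0.06, −0.23 and −0.20 and did not pass the test. The G1 to S cyclins, which open the way to DNA synthesis, had positive values, 0.66 ± 0.23 for *Ccne1* (150.1 ± 46.9 to 235 ± 59.5 normalized counts, limma unadjusted p = 0.0105, adjusted p = 0.155) and 0.29 ± 0.19 for *Ccne2*. For *Ccne1*, 3 of 5 CR libraries lay above all AL libraries, and its value was 0.18 in the model that held the share of genes at 0.

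**Figure D1:**
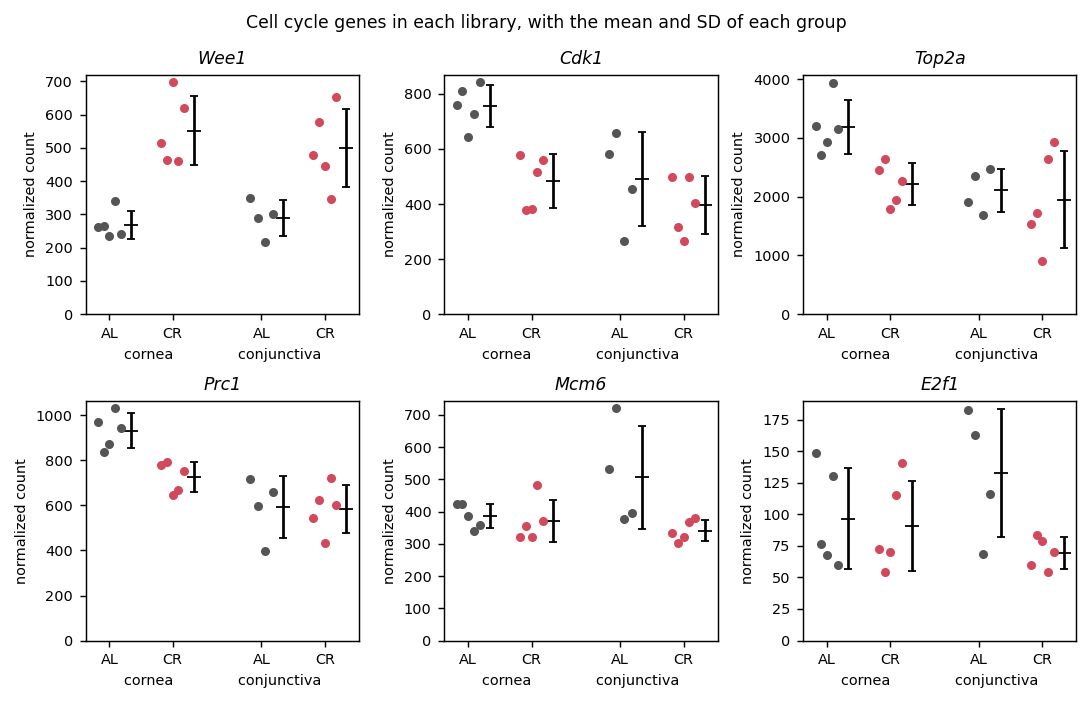
Normalized counts (y axis, from 0) of *Wee1*, *Cdk1*, *Top2a*, *Prc1*, *Mcm6* and *E2f1* in every AL (grey) and CR (red) library of each tissue, with the mean and SD of each group as bars. In the cornea the CR points for *Wee1* sit between 462 and 696, above all AL points, and those for *Cdk1*, *Top2a* and *Prc1* sit below all AL points, while in the conjunctiva the groups overlap for all 6 genes.

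*Top2a* and *Mki67* mark cycling cells. *Top2a*, the topoisomerase that untangles replicated chromosomes, measured 3208, 2710.4, 2928, 3925 and 3142 normalized counts in AL 1 to AL 5, and 2461, 2639, 1783, 1937 and 2258 in CR 1 to CR 4 and CR 7. Here too the groups did not overlap, although the highest CR library (CR 2) and the lowest AL library (AL 2) lay close together. The mean fell from 3183 ± 459 to 2216 ± 356. The log2 value, −0.53 ± 0.13 (SE, limma adjusted p = 0.0436), was under the fold threshold. The adjusted p was 0.109 without AL 1, 0.0628 without AL 2, 0.0830 without AL 3, 0.113 without AL 5, 0.141 without CR 3 and 0.0734 without CR 4 (limma), with log2 changes from −0.59 to −0.45 over all libraries left out. *Mki67*, the proliferation antigen that coats mitotic chromosomes, measured 1401, 1129, 1272, 1376 and 1281 normalized counts under AL and 1332, 1021, 744, 735 and 998 under CR. Of the CR libraries, 4 lay below all AL libraries, and CR 1 lay within the AL range. For *Mki67* the log2 change was −0.45 ± 0.15 (limma unadjusted p = 0.0062, adjusted p = 0.124).

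Among the 8 spindle, kinetochore and cytokinesis genes, all 8 log2 changes were negative in the cornea, from −0.55 (*Kif20a*) to −0.16 (*Cenpf*) with a median of −0.31, and 0 passed the adjusted test. *Prc1*, which bundles the microtubules of the midzone between separating chromosomes, measured 971, 838, 874, 1033 and 945 normalized counts in AL 1 to AL 5 and 779, 792, 645, 669 and 755 in CR 1 to CR 4 and CR 7. Every CR library lay below every AL library, with small spread within each diet. Its log2 change was −0.36 ± 0.11 (limma unadjusted p = 0.0052, adjusted p = 0.119). Its gene overlaps *Rccd1* on the map, as 16 of the 42 members overlap another gene, and without knowing how strand was treated the reads of both cannot be told apart. *Tpx2*, which activates Aurora A at the spindle, went from 501 ± 73.2 to 394 ± 78.3 (−0.35 ± 0.16, limma unadjusted p = 0.0380, adjusted p = 0.247). The mitotic motors *Kif11*, *Kif20a* and *Kif23*, the kinetochore genes *Cenpe* and *Cenpf* and the microtubule-binding gene *Nusap1* had CR libraries below the whole AL range in 2 or 3 of 5 cases each.

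The 8 mitotic kinase, checkpoint and anaphase-promoting complex genes had 6 negative log2 changes in the cornea, with a median of −0.21 and 0 past the adjusted test. *Birc5*, or survivin, a subunit of the chromosomal passenger complex, went from 582 ± 103 to 419 ± 88.1 normalized counts. On the log2 scale this was −0.48 ± 0.16 (limma unadjusted p = 0.0080, adjusted p = 0.137), 4 of 5 CR libraries lay below all AL libraries, and the value was −0.30 in the model that held the share of genes at 0. *Plk1*, the polo-like kinase of mitotic entry and exit, went from 660 ± 61.8 to 559 ± 73.2 (−0.24 ± 0.13, limma unadjusted p = 0.0680). The spindle checkpoint genes *Bub1* and *Bub1b* were at −0.19 and −0.39, *Aurka* at −0.26 and *Ube2c* at −0.15. *Aurkb* and *Cdc20* had positive values of 0.28 and 0.13 with standard errors of 0.33 and 0.20.

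Replication genes lay on both sides of 0 in the cornea, and their difference from the mitosis genes was not tested. Of the 9 licensing and helicase genes, 4 had negative log2 changes, with a median of 0.00 and a range from −0.40 to 0.19, and 0 had a limma unadjusted p under 0.05. Of the MCM subunits, *Mcm5* was lowest at −0.40 ± 0.24 (214 ± 63.9 to 165 ± 63.6 normalized counts), and at −0.24 without AL 1, −0.60 without CR 4 and −0.20 in the model that held the share of genes at 0. The 95% interval of *Mcm6* ran from −0.37 to 0.23. Among the 5 nucleotide and sliding clamp genes, *Tyms*, which makes thymidylate for DNA synthesis, measured 279, 236, 230.3, 157 and 286 under AL and 195, 139, 115, 133 and 161 under CR. Of the CR libraries, 3 lay below all AL libraries, and AL 4 was within the CR range. Its log2 change was −0.67 ± 0.20 (limma unadjusted p = 0.0036, adjusted p = 0.102), and it ran from −0.81 without AL 4 (limma adjusted p = 0.0204) to −0.58 without CR 3 (limma adjusted p = 0.235). The model that held the share of genes at 0 gave −0.40 (limma adjusted p = 0.527). *Pcna*, the clamp that tethers polymerases to DNA, was at 0.35 ± 0.24 (148 ± 38.8 to 190.2 ± 64.9, limma unadjusted p = 0.164), with CR 7 the highest at 294, and it was 0.17 without CR 7 and 0.22 without AL 4. *Rrm1*, *Rrm2* and *Tk1* were at 0.01, −0.38 and −0.05.

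Of the transcription factors that switch cell cycle genes on, in the cornea *E2f1* was at −0.08, *Foxm1* at −0.26 and *Mybl2*, or B-Myb, at −0.62 ± 0.46 (36.7 ± 11.03 to 25.6 ± 10.7 normalized counts, limma unadjusted p = 0.199). The *Mybl2* value rested largely on CR 4, where it measured 7.15, and it was −0.23 without that library.

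Over the 16 mitosis genes, 14 were lower under CR in the cornea (median −0.26), and over the 14 replication genes 7 were (median −0.03). Over all genes, 53.1% were lower. The mean centered log2 value of the mitosis genes overlapped between diets. It ran from −0.08 to 0.32 in AL libraries and from −0.49 to 0.10 in CR libraries. Leaving out each library kept the mitosis count at 14 or 15 and moved the replication count between 6 and 11, the latter without CR 7. Without AL 1, the median of all 42 members was −0.17, with 28 negative, and the log2 changes were −0.60 for *Tyms*, −0.42 for *Mki67*, −0.38 for *Birc5*, −0.34 for *Prc1*, −0.34 for *Tpx2* and 0.59 for *Ccne1*. The median of all members was −0.13 without CR 3. In the model that held the share of genes at 0 it was −0.26, with 32 negative. That model gave values further from 0 for *Top2a* (−0.63, limma adjusted p = 0.0343), *Prc1* (−0.41), *Plk1* (−0.28) and *Pcna* (0.41). Beside those given above, values nearer 0 were those of *Wee1* (0.84, limma adjusted p = 0.0225), *Mki67* (−0.40), *Tpx2* (−0.30) and *Mybl2* (−0.56). The genes in these groups share libraries and cells, so the counts are descriptions. Among members with a CHR match, 14 of 16 had a negative log2 change in the cornea (median −0.25), and among those with an E2F match 7 of 11 did (median −0.23). Among listed members without the match, 11 of 17 were negative for the CHR (median −0.08) and 18 of 22 for E2F (median −0.23). All tested genes with a CHR match had a median of −0.06 and those with an E2F match 0.01. CR 3 was the lowest library for 17 of the 42 members and AL 4 the highest for 11.

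**Figure D2:**
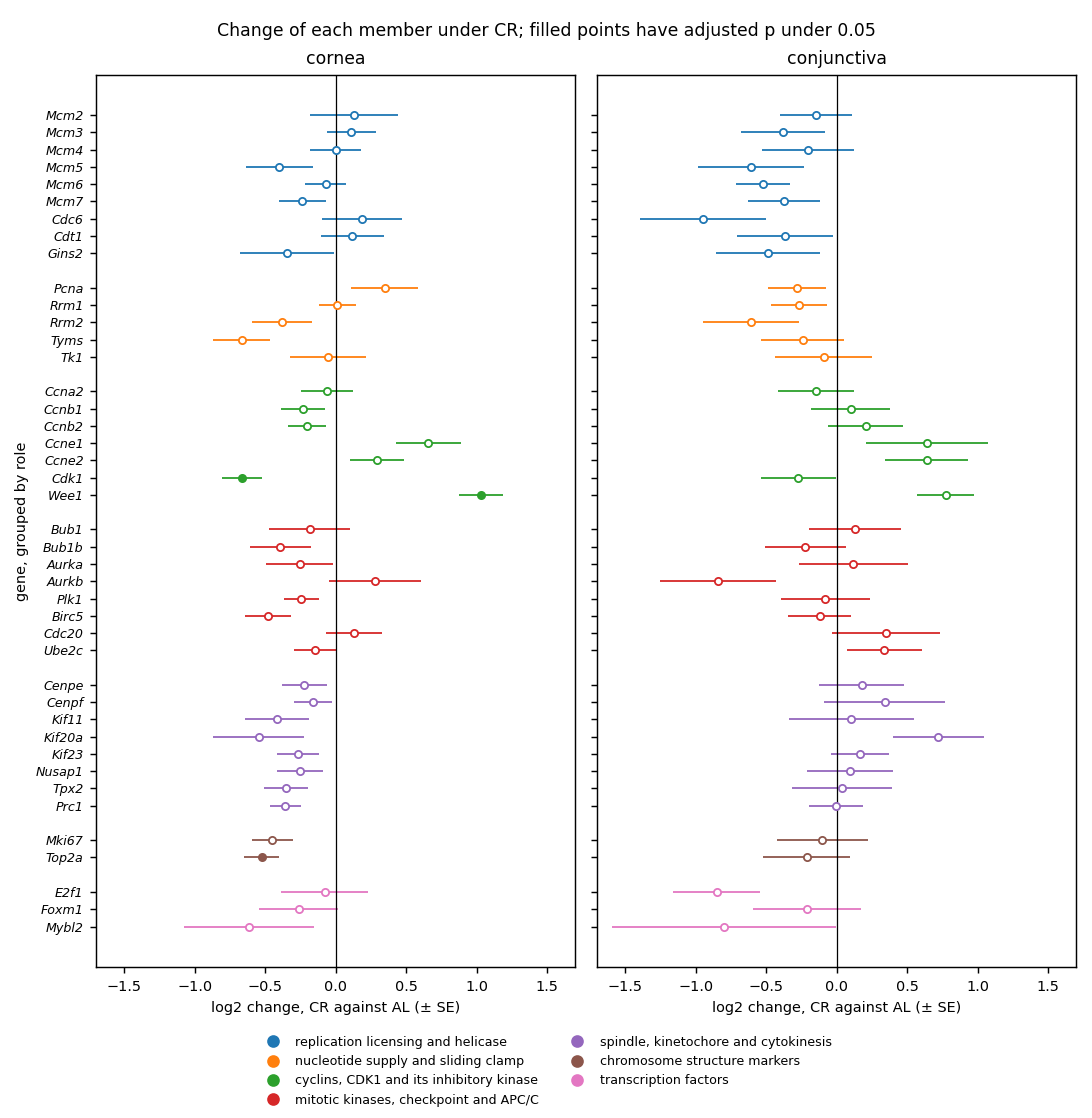
Log2 change of each member under CR (x axis, with the SE as bars) in the cornea (left) and conjunctiva (right), grouped and colored by role, with filled points where the limma adjusted p was under 0.05. The 3 filled points are *Wee1*, *Cdk1* and *Top2a* in the cornea, all spindle genes lie left of 0 there, and all licensing and nucleotide genes lie left of 0 in the conjunctiva.

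Markers of other cells moved with diet in the same corneal libraries. Lacrimal gland acinar markers were lower under CR in 8 of 8 tested (of 11 listed), with a median log2 change of −3.69, 6 at an unadjusted limma p under 0.05 and 1 past the adjusted test. Conjunctival epithelial markers were higher in 5 of 5, with a median of 0.45, 1 at that unadjusted p and 0 past the adjusted test. The 10 listed macrophage markers summed to 339 to 451 normalized counts under AL and 229 to 323 under CR, 6 of 6 tested were lower and 1 passed the adjusted test, with *Cd68* the most abundant. Lymphocyte markers were at or near 0, with sums up to 17.6 and *Cd79a* at 0 in every library. The sums of the basal epithelial markers overlapped between diets (261901 to 294086 under AL and 243412 to 328120 under CR). Of these 7 markers, 5 were higher under CR and 2 lower, with a median log2 change of 0.25. At an unadjusted limma p under 0.05, 4 were higher and 0 lower. The adjusted test was passed by 1, with a higher value under CR. The part of these cells in the cell cycle values was not tested.

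Other genes of the same pathways were read from lists that exclude the members and were chosen with earlier results of these data known. In the cornea, 46 of 54 other mitosis genes had a negative log2 change (53.1% of all genes), with a median of −0.31. At an unadjusted limma p under 0.05, 17 were lower and 0 higher (9.55% and 8.52% of all genes). The adjusted test was passed by 2, both lower, where 0.578% of all genes passed it with a lower value. *Ckap2l*, which encodes a spindle protein, measured 1028, 938, 1031, 1115 and 1091 normalized counts under AL and 849, 673, 633, 790 and 744 under CR. All CR libraries lay below all AL libraries. It fell by 0.50 on the log2 scale (SE 0.11, limma adjusted p = 0.0355), under the fold threshold. *Stmn1*, or stathmin, which destabilizes microtubules, measured 626, 557, 512, 350.2 and 541 under AL and 373, 203, 258, 381 and 274 under CR, with AL 4 inside the CR range. It fell by 0.81 (SE 0.19, limma adjusted p = 0.0384), and in the model that held the share of genes at 0 its log2 change was −0.41 (limma adjusted p = 0.320), that of *Ckap2l* being −0.46 (limma adjusted p = 0.131). Neither call held without AL 1, AL 2, AL 3, AL 5, CR 2 or CR 3, with limma adjusted p-values from 0.0663 to 0.117 for *Ckap2l* and from 0.0947 to 0.122 for *Stmn1*, and the *Stmn1* call was also lost without CR 7 (limma adjusted p = 0.0591).

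Of 42 other DNA replication genes, 26 had a negative log2 change in the cornea (median −0.14). The adjusted test was passed by 0 (1.53% of all genes). At an unadjusted limma p under 0.05, 4 were lower and 2 higher (9.55% and 8.52% of all genes). *Rfc2*, a subunit of the clamp loader, had the smallest p, from 261 ± 39.0 to 168 ± 30.9 normalized counts (−0.64 ± 0.17, limma adjusted p = 0.0708). Of the 19 genes of the RB family, the other E2F factors and the DREAM and MuvB complexes, 9 were negative (median 0.02) and 0 passed. *E2f7*, a repressor of E2F targets, had the smallest p and was higher in all 5 CR libraries than in any AL library (225 ± 17.0 to 345 ± 61.6, log2 change 0.60 ± 0.16, limma adjusted p = 0.0616).

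The second comparison asked the same of the conjunctiva. There, 0 of the 42 members passed the adjusted test (limma), and so 0 were called, where 0.359% of all genes passed and were called (0.223% higher and 0.136% lower), 3 were lower and 3 higher at an unadjusted limma p under 0.05, and the groups overlapped for all 42. Among all genes, 4.87% were lower and 4.53% higher at that unadjusted p (9.4% in all), and 3.87% did not overlap (1.95% lower and 1.92% higher). The unadjusted counts depended on single libraries. The lower count was 1 without AL 1 or AL 3 and 6 without AL 4 or CR 4, and the higher count was 7 without CR 3 and 1 without AL 4, CR 1, CR 4 or CR 5. The model that held the share of genes at 0 gave 8 lower and 1 higher. Of the 42 members, 26 had a negative and 16 a positive log2 change (52% and 48% of all genes), with a median of −0.13 (−0.02 over all genes). In the model that held the share of genes at 0, 36 of 42 were negative with a median of −0.33, where that share was 35.3% ± 1.90 under AL (n = 4) and 37.1% ± 2.29 under CR (n = 5, exact two-sided permutation p = 0.246). Leaving out single libraries gave 19 negative members (without CR 3, median 0.03) to 31 (without CR 4, median −0.20), and the median was −0.24 without AL 4, −0.06 without AL 5 and −0.02 without AL 3. With array weights 1 member passed, *Wee1* (limma adjusted p = 0.0498), where 155 of all genes passed in place of 50.

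*Wee1* measured 351, 288, 218 and 301 normalized counts in AL 1, AL 3, AL 4 and AL 5, and 477, 577, 445, 346 and 652 in CR 1 to CR 5. Of the CR libraries, 4 lay above all AL libraries, and CR 4 lay just below AL 1. The mean went from 289.5 ± 54.5 (n = 4) to 499 ± 118 (n = 5). This gave 0.77 ± 0.20 on the log2 scale (SE, limma unadjusted p = 0.0013, adjusted p = 0.132), with a 95% interval from 0.35 to 1.19. *Per2* and *Dbp* rose in these libraries by log2 changes of 1.84 ± 0.19 and 2.80 ± 0.25 (limma adjusted p = 3.3e-04 for both), and their part in the *Wee1* values was not tested. The E cyclins were on the same side. *Ccne2* measured 124, 171, 77.5 and 133 under AL and 205, 148, 113, 258 and 275 under CR, so that CR 2 and CR 3 lay among the AL libraries. Its gene overlaps *Ints8*. For *Ccne2* the log2 change was 0.64 ± 0.29 (limma unadjusted p = 0.0444, adjusted p = 0.509), and that of *Ccne1* was 0.64 ± 0.43 (limma unadjusted p = 0.156). *Cdk1* was at −0.27 ± 0.27 (491 ± 171 to 396 ± 106, limma unadjusted p = 0.320).

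All 14 replication genes had negative log2 changes in the conjunctiva, from −0.95 to −0.09 with a median of −0.37, and 0 passed the adjusted test. *Mcm6*, a subunit of the ring helicase, measured 532, 723, 378 and 394 normalized counts in AL 1, AL 3, AL 4 and AL 5 and 334, 302, 321, 369 and 379 in CR 1 to CR 5. Both AL 1 and AL 3 were far above the rest, and AL 4 lay among the CR libraries. Its log2 change was −0.53 ± 0.19 (limma unadjusted p = 0.0144, adjusted p = 0.354). *Cdc6*, which loads the helicase, measured 69.1, 112, 41.96 and 43.6 under AL and 14.6, 31.4, 39.6, 58.4 and 27.7 under CR. All CR libraries but CR 4 lay below the AL range. This was −0.95 ± 0.45 on the log2 scale (limma unadjusted p = 0.0485, adjusted p = 0.525). *Mcm5* (−0.61 ± 0.38), *Rrm2*, the small subunit of ribonucleotide reductase (105 ± 18.8 to 74.0 ± 35.2, −0.61 ± 0.34), and *Pcna* (202 ± 51.8 to 163 ± 12.2, −0.28 ± 0.21) had limma unadjusted p-values of 0.130, 0.0896 and 0.190.

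*E2f1*, the founding activator of replication genes, followed the same libraries. It measured 182, 163, 68.9 and 116 normalized counts under AL and 59.4, 83.8, 79.2, 54.3 and 69.8 under CR. AL 1 and AL 3 were again the highest, and AL 4 lay within the CR range. Its gene overlaps *Necab3*. The log2 change was −0.85 ± 0.31 (133 ± 50.7 to 69.3 ± 12.5, limma unadjusted p = 0.0137, adjusted p = 0.349). *Foxm1* and *Mybl2* were at −0.21 and −0.80, the latter with a standard error of 0.80 and as few as 2 reads in a library.

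Since AL 1 and AL 3 had the highest values of *Mcm6* and *E2f1*, the conjunctiva was also fitted without them, a choice made after the values were seen, and this left 2 AL libraries. Of the 14 replication genes, 7 were then negative. The log2 changes became −0.18 for *Mcm6*, −0.44 for *Cdc6*, −0.38 for *E2f1*, −0.09 for *Pcna* and 0.060 for *Mcm5*. *Rrm2*, for which AL 1 was the lowest AL library, was at −0.68, further from 0 than with all libraries. Without AL 3 alone, *Mcm6* was at −0.34, *Mcm5* at −0.17 and *Pcna* at −0.12. Leaving out single libraries kept between 12 and 14 of the 14 negative, with medians from −0.54 to −0.17, the latter without AL 3. Among the 11 members with an E2F match, 10 were negative in the conjunctiva (median −0.38), and among the 16 with a CHR match 8 were (median 0.05), where both medians over all genes with the match were −0.02. Among listed members without the match, 11 of 22 were negative for E2F (median 0.04) and 13 of 17 for the CHR (median −0.28).

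Of the 16 mitosis genes, 5 had negative log2 changes in the conjunctiva (median 0.11), and this balance was not stable. In the model that held the share of genes at 0, 13 of 16 were negative and the median was −0.21. The count was 1 without CR 3, 8 without AL 4 and 9 without CR 4 or CR 5, and the median ran from −0.08 to 0.27 over the libraries left out. Of the 8 spindle genes, 7 were positive, with *Prc1* at −0.01. *Kif20a*, a kinesin of the cleavage furrow, measured 71.5, 35.9, 48.4 and 74.5 normalized counts under AL and 100.3, 77.1, 58.9, 122 and 116 under CR. Of the CR libraries, 4 lay above all AL libraries and CR 3 lay among them. The *Kif20a* log2 change was 0.72 ± 0.33 (limma unadjusted p = 0.0416, adjusted p = 0.503), and its gene overlaps *Brd8* and *Cdc23*. *Aurkb*, the kinase of the chromosomal passenger complex, went the other way, from 78.5 ± 26.9 to 46.8 ± 27.7 (−0.84 ± 0.41, limma unadjusted p = 0.0568). *Mki67* and *Top2a* were at −0.10 ± 0.32 and −0.21 ± 0.31, and at −0.47 and −0.61 in the model that held the share of genes at 0.

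Single libraries shaped these values. *Top2a* measured 1909, 2351, 1689 and 2470.2 normalized counts under AL and 1536, 1726, 910.4, 2633 and 2933 under CR, so that the lowest and the highest library were both from CR mice. CR 3 was the lowest library for 20 of the 42 members and CR 4 the highest for 16. Without CR 3, *Top2a* was at 0.03 and *Mki67* at 0.15, and the median of the 42 members was 0.03. On a score that averages the centered log2 values of a group of genes in a library, CR 3 had a mitosis score of −0.72 and CR 4 one of 0.65, and the AL libraries ran from −0.32 to 0.20. The replication score was 0.37 in AL 1 and 0.80 in AL 3 and between −0.46 and 0.15 in the other conjunctiva libraries.

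**Figure D3:**
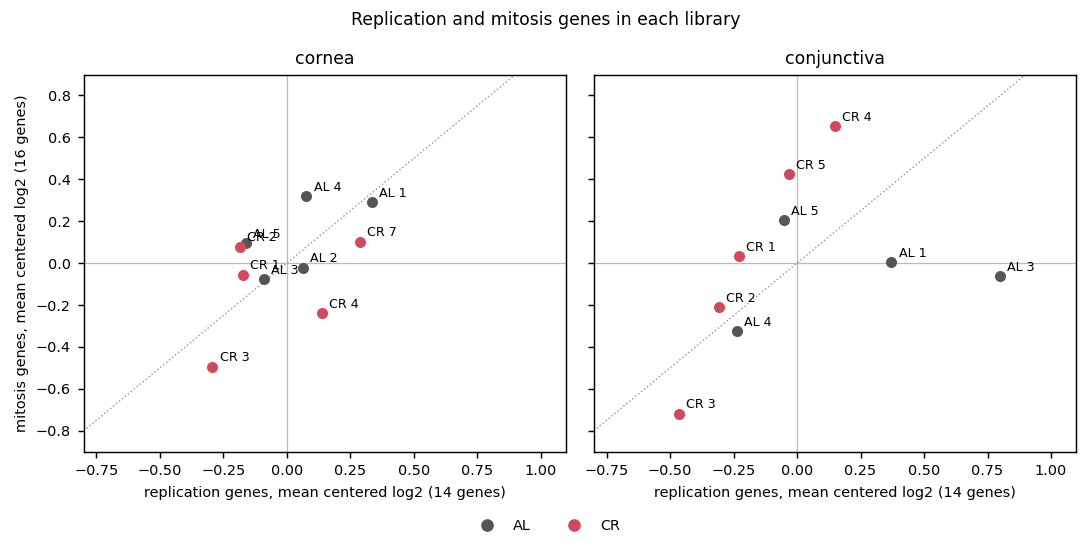
Replication score (x axis) and mitosis score (y axis) of each library, as the mean centered log2 value of 14 and 16 genes, for AL (grey) and CR (red) libraries, with a dotted line where the scores are equal. In the conjunctiva AL 1 and AL 3 stand to the right at replication scores of 0.37 and 0.80 with mitosis scores near 0, and CR libraries span the mitosis axis from −0.72 to 0.65.

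Markers of other cells also differed in the conjunctiva. Lacrimal gland acinar markers were lower under CR in 4 of 4 tested (of 11 listed), with a median log2 change of −3.69, 3 of them at an unadjusted limma p under 0.05 and 0 past the adjusted test. The 10 fibroblast markers were lower in 10 of 10 cases, with 3 past the adjusted test and sums of 40703 to 60925 normalized counts under AL and 26542 to 52394 under CR, and *Dcn* the most abundant. The 10 macrophage markers were lower in 10 of 10 cases with 0 past it, and their sums were 3604 to 4759 and 2335 to 3679. Meibomian gland markers were higher in 6 of 6 tested, with 0 at an unadjusted limma p under 0.05 and 0 past the adjusted test. Their sums overlapped between diets, at 613 to 1154 under AL and 894 to 20445 under CR. The part of these cells in the cell cycle values was not tested.

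In the other lists, 30 of 41 tested DNA replication genes were negative in the conjunctiva (median −0.26), and *Cdc7*, the kinase that fires licensed origins, had the smallest p (66.0 ± 14.2 to 37.4 ± 12.1, −0.83 ± 0.35, limma adjusted p = 0.465). Of 53 other mitosis genes, 28 were negative (median −0.03), and *Cdca5*, or sororin, which protects sister chromatid cohesion, had the smallest p (29.1 ± 9.002 to 13.5 ± 6.28, −1.11 ± 0.55, limma adjusted p = 0.545). In the RB, E2F and DREAM list 8 of 19 were negative, and *Tfdp2*, a dimerization partner of E2F factors, lay higher in all 5 CR libraries than in any AL library (738 ± 46.1 to 1126 ± 132, 0.60 ± 0.14, limma adjusted p = 0.0734). In these lists 0 genes passed the adjusted test, where 0.359% of all genes passed it and 52% of all genes were negative.

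**Figure D4:**
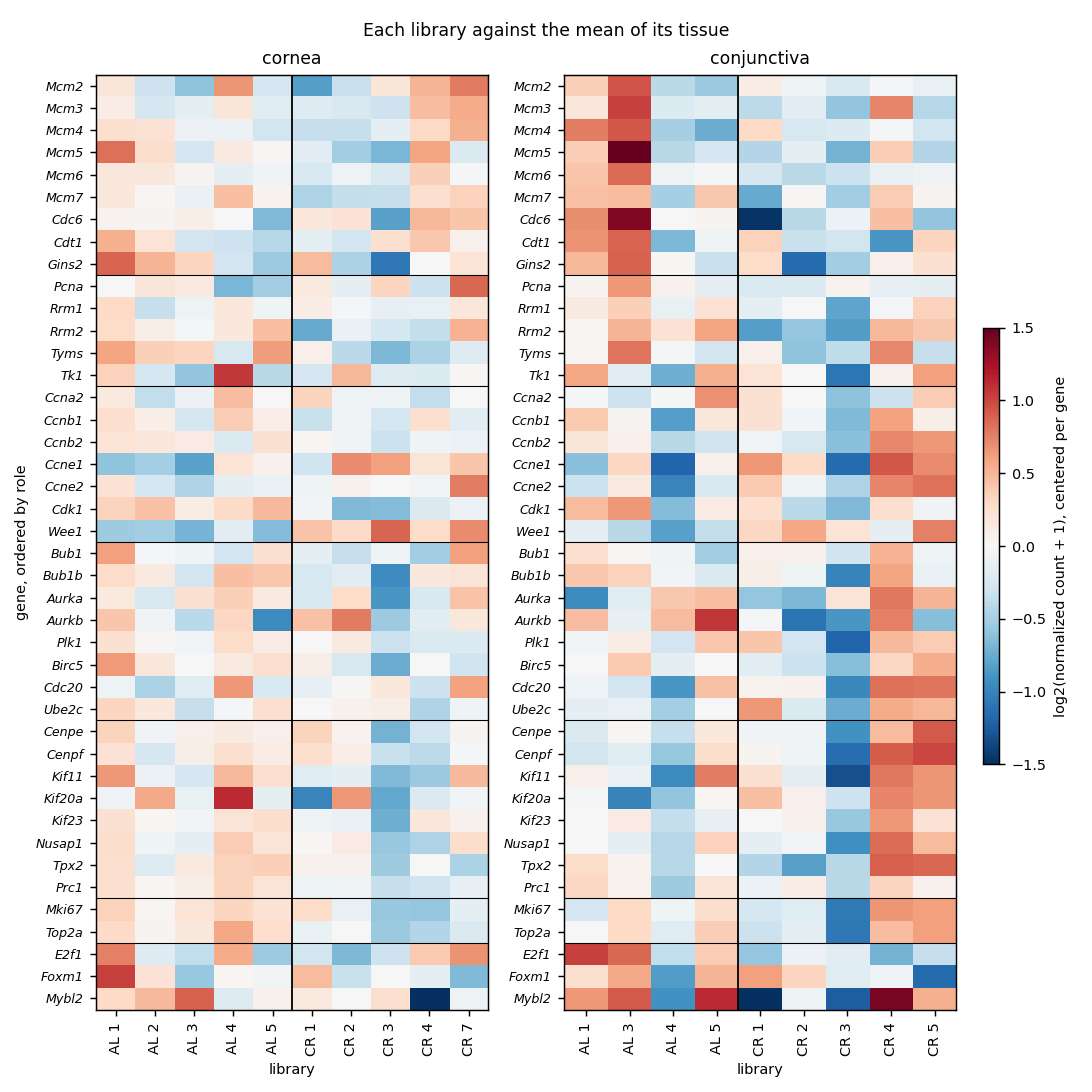
Log2(normalized count + 1) of the 42 members in each library, centered on the mean of the gene in its tissue (color, from −1.5 in blue to 1.5 in red, with values beyond drawn at the ends), with genes ordered by role and a line between AL and CR libraries. *Wee1* is blue in all corneal AL libraries, the conjunctiva library AL 3 is red across the licensing genes, and CR 3 is below the mean for most mitosis genes in both tissues.

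The last comparison asked whether the effect of CR differed between the tissues. The difference of the log2 changes, conjunctiva minus cornea, passed the adjusted test for 0 of 42 members and for 2 of 11929 genes (0.0168%). *Kif20a* had the smallest p among the members, with a difference of 1.27 ± 0.46 (SE, limma estimates, unadjusted p = 0.0091, adjusted p = 0.502). *Cdc6* and *Aurkb* had differences of −1.14 and −1.12 (limma estimates, unadjusted p = 0.0399 and 0.0407). At that unadjusted p, 1 member was higher and 2 lower in the conjunctiva, where 3.78% and 3.7% of all genes were (7.48% in either direction). For *Wee1* the difference was −0.26 ± 0.25 (limma estimates, adjusted p = 0.842) and for *Cdk1* 0.39 ± 0.30. The test treats cornea and conjunctiva libraries as separate mice. The study took several tissues from each mouse, so some libraries may be paired across tissues, and the test leaves such pairing out.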

How the data were processed

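RNA was sequenced from 10 cornea and 9 conjunctiva libraries. By the study's methods the authors trimmed reads with cutadapt, aligned them with STAR to mm10 and counted them with HTSeq on ROSALIND. The authors took relative log expression size factors from DESeq2. Tool versions were not stated, and the submitters' processing notes name GRCm39. The labels and the methods name different library kits, so the use of strand in counting is unsettled. The deposited values are on a log2 scale, where each normalized count (reads over a size factor) had 1 added, and the authors scaled each tissue on its own. They were turned back into normalized counts, and 100% of values gave whole reads (tolerance 0.01 reads). The tables had 0 unmapped columns. Of 24557 features, 5 that repeated a symbol were left out.

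Diets were compared with limma 3.58.1 (statmod 1.5.0, R 4.3.3) on log2(normalized count + 1) with a trend in the variance and robust moderation, keeping genes whose mean reached 10 normalized counts. Calls were made at a Benjamini-Hochberg adjusted p under 0.05 and a fold over 1.5. On this scale, fold changes of genes with few reads come out too small. With 10354125 to 14681223 counted reads per library, a count of 0 allows up to 3 reads (2.27 to 3.37 normalized counts), which covers counting error only. The difference between tissues used both fits with Satterthwaite degrees of freedom. For single values, two-sided exact permutation tests were used. The fits were tested on simulated data.

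Members and lists were chosen with earlier results of these data known. Genes described were those past the adjusted p, the 10 members with the smallest p in each tissue, the member of each role with the smallest p, *Mki67*, *Top2a*, *Pcna* and *Wee1*, and of each other list up to 4 genes past the adjusted p or the gene with the smallest p. Other members given with a value, and *Per2* and *Dbp*, were chosen after their values were seen. Each comparison of diets was recomputed with a pseudocount of 0.5 or 10, no filter, and a mean of at least 50. Other fits used quantile or trimmed-mean scaling, array weights, voom on the recovered reads, or the replicate number as a block. The share of genes at 0 was also held in the model, and each library was left out in turn. The difference between tissues was recomputed only with a pseudocount of 10, that share held, the block, and each library left out. For it, 1 fit of both tissues with an interaction was also made. The fit without conjunctiva AL 1 and AL 3 was added after seeing the data. Within each tissue, correlations of the deviations of same-numbered AL and CR libraries ran from −0.30 to 0.29. Replicate numbers were therefore not taken as pairs of AL and CR libraries. Cornea and conjunctiva libraries with the same diet and number were not compared in this way, so pairing across tissues was not tested. Apart from their numbers, nothing in the labels says that libraries of a group came from separate mice, so p-values measure the spread between these libraries, and the labels give no batch. Promoters came from the RefSeq table of GRCm38.p6, and no coordinate was converted between builds.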

Additional observations from a re-analysis of the deposited data

Results flagged for a closer look

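Of 52 groups of libraries examined, 2 held a library far from the others by Dixon's criterion, where chance gives about 1 in 20. *Mybl2* measured 7.15 normalized counts in cornea CR 4, and the nearest CR library had 26.9. *Wee1* measured 339.6 normalized counts in cornea AL 4, and the nearest AL library had 264. Without AL 4 the log2 change of *Wee1* in the cornea was 1.12 (limma adjusted p = 5.2e-04).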

How the results depend on the processing

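In the cornea, the 2 called members became 4 with array weights and 1 to 4 with each library left out. The 3 members past the adjusted p became 8 with array weights and 1 to 5 with each library left out. The 2 genes of the other lists past it became 0 without a filter and 0 when the model held the share of genes at 0. They became 16 with array weights and 0 to 9 with each library left out. The counts over all tested corneal genes moved in the same settings. There, 150 called genes became 705 with array weights and 53 to 536 with each library left out. The 188 past the adjusted p became 1186 with array weights, 73 with that share held and 55 to 770 with each library left out. In the conjunctiva, array weights gave 1 called member and 1 past the adjusted p in place of 0. Over all genes there, 155 passed in place of 50. Array weights also gave 1 gene of the other lists, which was also the most with each library left out (0 to 1). Without AL 1 and AL 3, 7 in place of 14 replication genes were lower, and *Mcm5* changed sign to 0.060. Without CR 3, *Mki67* and *Top2a* in the conjunctiva changed sign, to 0.15 and 0.032 from the values in the report, and over all libraries left out they ran from −0.28 to 0.15 and from −0.39 to 0.032. *Wee1* in the cornea passed in 19 of 20 alternatives, *Cdk1* in 13 and *Top2a* in 11. The cause of these shifts was not tested. With the share of genes at 0 held, 13 in place of 5 of 16 mitosis genes and 36 in place of 26 of 42 members were lower in the conjunctiva, with 8 lower and 1 higher in place of 3 and 3 at an unadjusted limma p under 0.05. No member passed the test between tissues under any alternative.

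Replicate numbers were not taken as pairs of AL and CR libraries within a tissue. With the number as a block, 12 in place of 7 of 14 replication genes were lower in the cornea, and *Pcna* there was at 0.09. In that fit 0 members were called or passed the adjusted p in the cornea, as did 0 genes of the other lists. Over all corneal genes, 46 passed in place of 188. *Wee1* was at 0.95 (limma adjusted p = 0.0501) and *Cdk1* at −0.69 (limma adjusted p = 0.0986).

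Precision was limited by 4 or 5 libraries per group. In the conjunctiva the standard errors of the log2 changes ran up to 0.80, that of *Mybl2*, which had as few as 2 reads in a library, so differences not past the test there were not detectable with these libraries and are not shown to be absent.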
